A study of Mus musculus with 10 samples.

Results

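Complete loss of Pax5 was analyzed by comparing the transcriptomes of Pax5fl/fl Vav-Cre cells (2 libraries) with those of Pax5+/+ pro-B cells (2 libraries). Levels are given as TPM, a read count normalised to gene length and to the size of the library, and all genes with at least 1 TPM in at least 1 RNA-seq library of the series were included, which left 13436 of the 25579 genes in each table. Both groups were ex vivo-sorted bone marrow cells of C57BL/6 mice, and polyadenylated RNA was sequenced. In the Pax5fl/fl Vav-Cre mice, both Pax5 alleles carry loxP sites, and Cre is expressed from Vav regulatory elements across the hematopoietic system, so that deletion is not restricted to B cells. The Pax5+/+ cells are labelled pro-B cells and the Pax5fl/fl Vav-Cre cells progenitor cells, and no Cre allele is given for the wild type. The age, the sex and the number of pooled animals of each library, and the gate used for the knock-out cells, are not given in the sources used here. Genotype therefore cannot be told apart from the labelled cell type and from the way the cells were sorted.

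Pax5 is a paired-domain transcription factor that is switched on at the transition to committed pro-B cells. It activates genes of the B cell program, including components of the pre-B cell receptor complex, and represses genes of other hematopoietic lineages. Pax5-deficient progenitors are known to arrest at an early pro-B cell stage and to retain the capacity to enter other lineages.

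The libraries held between 21625407 and 34488454 recovered reads in the series, and 21625407 and 33248716 in the first and second knock-out library. Pax5 itself was measured at 418 and 444 TPM in Pax5+/+ cells and at 1242 and 1409 TPM in Pax5fl/fl Vav-Cre cells (log2 difference 1.62 ± 0.11 SE, adjusted P = 4.92e-05, limma). These values sum reads over the whole gene, and they do not show whether the deleted part was transcribed, so the gene-level value is no check of the deletion. Xist and the Y-linked genes Ddx3y, Eif2s3y, Kdm5d and Uty were above 0 in all 4 libraries. The labels do not say that the libraries of a genotype came from separate mice, so that P values measure the spread between libraries. The fit took that spread from all RNA-seq libraries of the series, Pax5+/- and Pax5R31Q/- pro-B cells included. It may differ from the spread of the compared libraries alone, and a fit of those is given in the closing section.

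Knock-out library 1 held more granulocyte RNA than the other 3 libraries. The 20 genes of mature granulocytes summed to 1038 and 811 TPM in Pax5+/+ cells, to 4014 TPM in knock-out library 1 and to 522 TPM in knock-out library 2. All 20 were higher in knock-out library 1 than in knock-out library 2. For instance, Ngp, a neutrophil granule protein, was at 182 and 189 TPM in the wild type, at 804 TPM in the first knock-out library and at 87.9 TPM in the second. Elane, neutrophil elastase, was at 11.6 and 16.0 TPM against 92.6 and 6.69 TPM. Among 9920 non-immunoglobulin genes with a mean above 5 TPM, 47 were over 3-fold higher in knock-out library 1 than in library 2 and 54 were over 3-fold lower, as compared with 5 and 3 of 9906 genes between the wild-type libraries. Of those 47 genes, 19 are on the lists of mature granulocyte or myeloid progenitor genes.

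For this reason, a gene was called only when both knock-out libraries agreed. A call required an adjusted P value below 0.05 (limma), a difference of more than 3-fold on the log2(TPM + 1) scale, a mean above 5 TPM in a genotype, and a position of each knock-out library more than 3-fold away from the wild-type mean and beyond both wild-type libraries. A gene is said to have fallen or risen when the adjusted P value was below 0.05 and both knock-out libraries lay on the same side of both wild-type libraries, without a fold threshold. Immunoglobulin genes were left out of the calls. By these criteria, 376 genes were called lower (2.80% of all genes tested) and 325 genes were called higher (2.42%) in Pax5fl/fl Vav-Cre cells. Without the requirement of agreement, 463 (3.45%) and 386 (2.87%) genes passed the thresholds. Of the 87 lower genes that were lost, library 1 was within 3-fold of the wild type for 24 and library 2 for 63, whereas of the 61 lost higher genes it was library 1 for 40 and library 2 for 21. Without a fold threshold, 2647 genes (19.7%) fell and 2182 genes (16.2%) rose, and the median difference of all genes tested was −0.11 on the log2 scale.

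**Figure D1:**
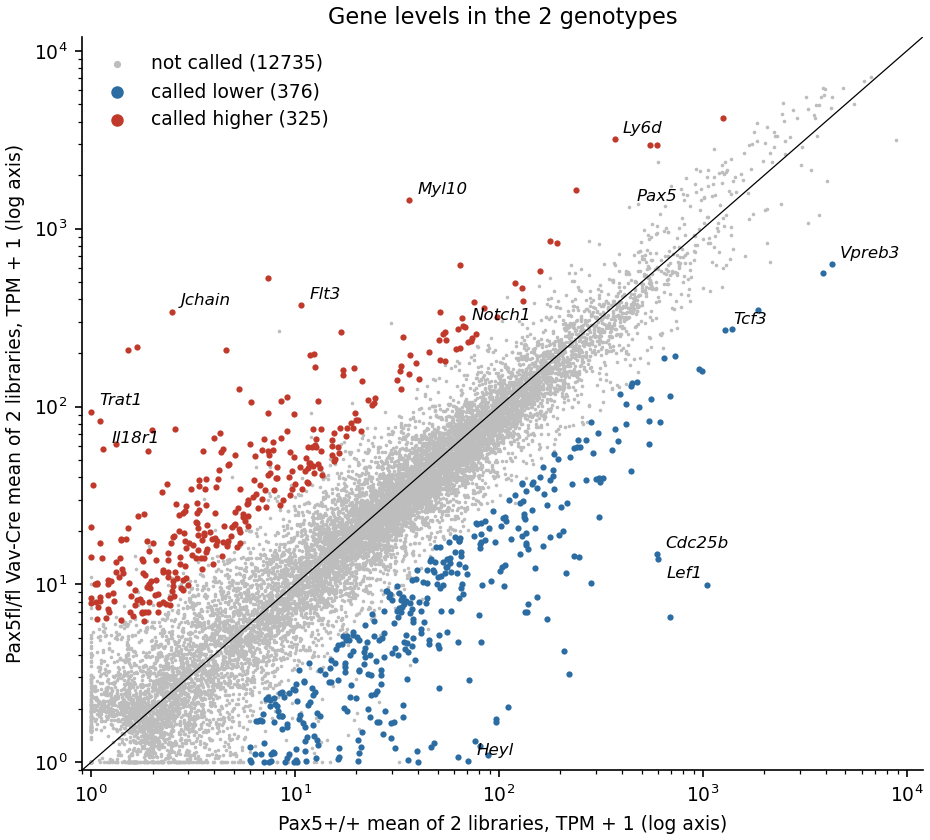
Mean TPM + 1 of each gene in Pax5+/+ (horizontal, log axis) and Pax5fl/fl Vav-Cre cells (vertical, log axis), 2 libraries a genotype, with the line of equal levels. The 376 genes called lower (blue) lie below and the 325 called higher (red) above the line, and Heyl, Myl10 and Jchain are far from the line.

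**Figure D2:**
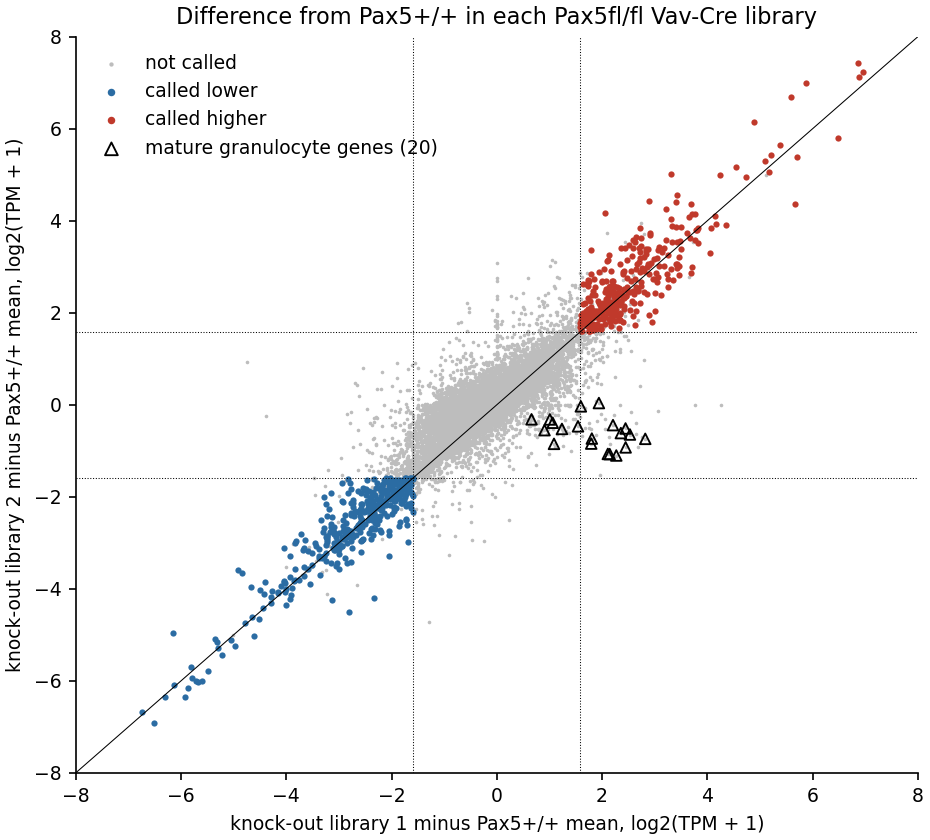
Difference of knock-out library 1 (horizontal) and library 2 (vertical) from the Pax5+/+ mean on the log2(TPM + 1) scale, with dotted lines at 3-fold. Called genes (blue and red) lie beyond 3-fold in both libraries by definition, and the 20 mature granulocyte genes (triangles) are all higher in library 1 than in library 2.

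The median log2 difference was −2.45 for the genes called lower and 2.34 for those called higher, and 108 and 83 genes differed by more than 8-fold. As the samples are bulk RNA, fewer cells of a type and less RNA per cell cannot be told apart here.

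The largest decreases were found in genes of diverse function. Cplx2, which encodes the vesicle fusion regulator complexin 2, fell from 588 and 793 TPM to 6.43 and 4.64 TPM (log2 difference −6.72 ± 0.18 SE, adjusted P = 1.11e-06, limma). Heyl, a Hairy-related transcriptional repressor of the Notch pathway, had 68.7 and 70.2 TPM in the wild type and was at 0 and 0.0312 TPM in the knock-out. Fxyd6, a regulator of the sodium pump, decreased from 92.2 and 82.6 TPM to 0.111 and 0.0790 TPM. Among the 10 largest decreases were also Pcp4l1, Tmem132e, Rsph1, Mmrn1, Alpl and Ehd2, with log2 differences between −6.14 and −5.80. Rsph1 overlaps Ubash3a on the other strand, and Ubash3a was called lower as well (56.6 and 63.1 TPM against 17.7 and 17.4 TPM), so that reads of this pair may not be separable.

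The largest increases included genes known from plasma cells, T cells and innate lymphocytes. Jchain, the joining chain of polymeric immunoglobulins, was at 0.718 and 2.26 TPM in Pax5+/+ cells and at 273 and 408 TPM in Pax5fl/fl Vav-Cre cells (log2 difference 7.15 ± 0.35 SE, adjusted P = 1.40e-05, limma). Trat1, an adaptor of the T cell receptor complex, had no read in either wild-type library and reached 57.9 and 127 TPM in the knock-out, which is at least 556-fold higher when 3 reads over both wild-type libraries are taken as the floor. Il18r1, the ligand-binding chain of the interleukin-18 receptor, rose from 0.210 and 0.0842 TPM to 33.0 and 80.3 TPM. Ifitm1, an interferon-induced membrane protein, rose from 6.32 and 6.34 TPM to 651 and 408 TPM. Myl10, a myosin light chain, was expressed at 40.3 and 30.2 TPM in the wild type and rose to 1334 and 1552 TPM. Stum, Gpr25, ccdc198, 9030619P08Rik and Ehd3 completed the 10 largest increases, with log2 differences from 5.51 to 7.09.

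Heyl was still expressed in both other genotypes of the series. Pax5+/- pro-B cells had 43.1 ± 13.8 TPM of this gene (SD, n = 2), and Pax5R31Q/- pro-B cells had 11.4 ± 3.01 TPM (SD, n = 2). Myl10 was at 160 TPM in Pax5+/- and at 303 TPM in Pax5R31Q/- cells on average, between the 2 groups compared here.

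To show where Pax5 was bound at such genes, the 250 bases upstream of the RefSeq start site are given for 2 genes called lower (Lef1, Cd79a) and 2 genes called higher (Il18rap, Dtx4) that had a Pax5 ChIP-seq peak at the start site in cultured Rag2-/- pro-B cells. The sequences are from the GRCm38.p6 assembly, 5′ to 3′ on the strand of the gene, and capitals mark the bases that lie inside the Pax5 peak. The windows are chr3:131110047-131110296 (plus strand) for Lef1, chr7:24897247-24897496 (plus strand) for Cd79a, chr1:40515112-40515361 (plus strand) for Il18rap and chr19:12502180-12502429 (minus strand) for Dtx4. No RefSeq exon lies in these windows.
Lef1: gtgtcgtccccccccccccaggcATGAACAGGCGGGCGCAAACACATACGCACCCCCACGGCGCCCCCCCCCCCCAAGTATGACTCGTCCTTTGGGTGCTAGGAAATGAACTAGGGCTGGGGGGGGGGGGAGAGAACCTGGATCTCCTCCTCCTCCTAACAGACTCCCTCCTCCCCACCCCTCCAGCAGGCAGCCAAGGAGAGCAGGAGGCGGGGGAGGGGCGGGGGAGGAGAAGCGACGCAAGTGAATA
Cd79a: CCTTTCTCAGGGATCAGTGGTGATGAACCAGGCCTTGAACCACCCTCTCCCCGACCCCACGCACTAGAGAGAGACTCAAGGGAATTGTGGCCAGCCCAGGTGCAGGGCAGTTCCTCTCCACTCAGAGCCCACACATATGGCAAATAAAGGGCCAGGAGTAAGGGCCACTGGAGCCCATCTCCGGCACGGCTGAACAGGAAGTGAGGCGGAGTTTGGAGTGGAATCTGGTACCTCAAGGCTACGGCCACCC
Il18rap: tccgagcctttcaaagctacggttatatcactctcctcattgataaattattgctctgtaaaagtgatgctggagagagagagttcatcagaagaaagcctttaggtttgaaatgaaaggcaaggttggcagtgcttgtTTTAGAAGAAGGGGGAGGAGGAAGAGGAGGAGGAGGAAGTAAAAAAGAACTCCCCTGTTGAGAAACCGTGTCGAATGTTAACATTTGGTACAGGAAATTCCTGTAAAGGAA
Dtx4: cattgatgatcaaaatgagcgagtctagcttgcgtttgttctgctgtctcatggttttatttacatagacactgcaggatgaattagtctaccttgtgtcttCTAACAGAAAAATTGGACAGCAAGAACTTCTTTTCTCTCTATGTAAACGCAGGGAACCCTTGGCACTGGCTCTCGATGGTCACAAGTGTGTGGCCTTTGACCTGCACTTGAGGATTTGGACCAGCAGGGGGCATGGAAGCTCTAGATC
The peak covered all 250 bases at Cd79a, 227 at Lef1, 148 at Dtx4 and 111 at Il18rap. The whole peaks were 580, 411, 309 and 253 bases long in that order, and their parts outside the windows were not searched. The letters GCGTNAC, the 3′ part of the known paired-domain consensus, were searched on both strands and were not found in these 4 windows. Over all 32851 RefSeq promoters of 300 bases, 5.96% held them, as compared with 9.56% of the 366 promoters of genes called lower and 3.33% of the 300 promoters of genes called higher. Among promoters of genes with a Pax5 peak at the start site, the shares were 12.71% for all genes tested, 12.15% for genes called lower and 7.21% for genes called higher, so that the share of the genes called lower was near that of all bound genes.

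A Pax5 peak at the start site was common among all expressed genes. Within 1 kb of a start site, 68.2% of the 13101 annotated genes tested had a peak, 69.3% of the genes called lower (260 of 375; 95% Wilson interval, 64.5 to 73.8%) and 34.6% of the genes called higher (111 of 321; 29.6 to 39.9%). The share differed with the level of the gene in wild-type cells. Among genes above 5 TPM in the wild type, a peak was present at 79.0% of all genes tested, at 80.4% of those that did not change, at 69.3% of the genes called lower and at 46.3% of the genes called higher (63 of 136). At or below 5 TPM, the shares were 35.0% of all genes tested and 25.9% of the genes called higher (48 of 185). A peak anywhere within the gene was found for 82.4% of the genes called lower, all of which were above 5 TPM in the wild type, as compared with 83.7% of all genes tested in that range. For genes called higher in that range the share was 64.0%. Among the 10 largest decreases, 6 genes had a peak at the start site (Cplx2, Pcp4l1, Heyl, Alpl and Ehd2 among them), and among the 10 largest increases 2 genes did (Ehd3 and Myl10). The peaks come from 1 library of cultured cells, the intervals cover counting error only, and no test was made.

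**Figure D3:**
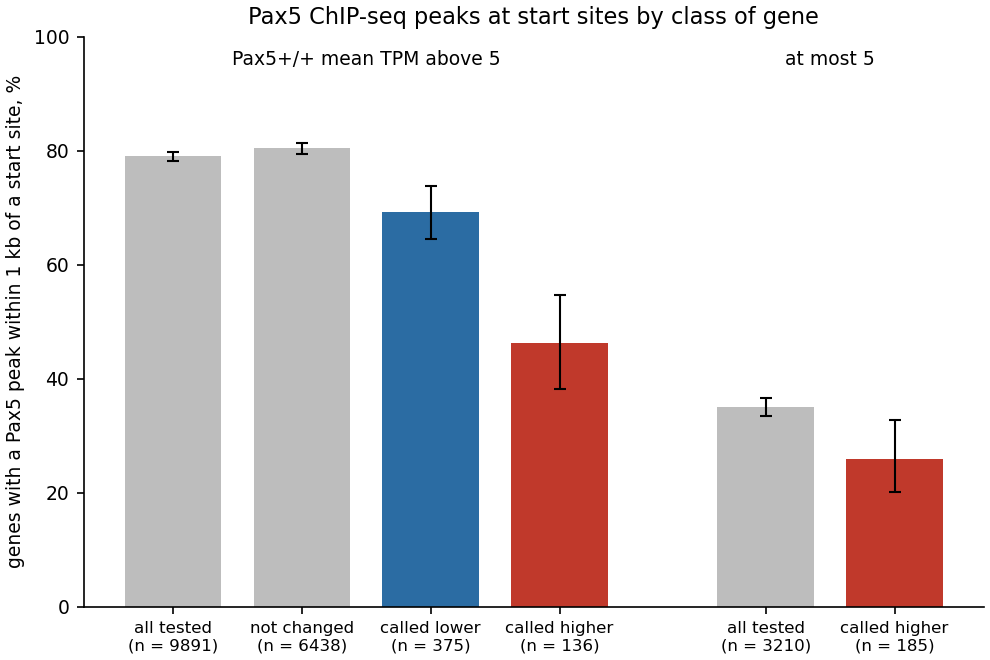
Share of genes (%) with a Pax5 ChIP-seq peak within 1 kb of an annotated start site, for classes of genes above 5 TPM and at most 5 TPM in Pax5+/+ cells, with 95% Wilson intervals as bars. In both ranges of expression the called genes have fewer peaks than all genes tested, with 69.3% and 46.3% against 79.0% and 25.9% against 35.0%.

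Of the 6 genes of the pre-B cell receptor complex, 5 fell and 0 rose, with a median log2 difference of −1.62 (all genes tested, −0.11). Vpreb3, a chaperone-like chain that associates with newly made immunoglobulin chains, decreased from 4186 and 4361 TPM to 595 and 662 TPM. The signalling chain gene Cd79a decreased from 2965 and 4786 TPM to 634 and 488 TPM (log2 difference −2.76), whereas its partner Cd79b decreased by much less, from 1716 and 1660 TPM to 1181 and 1083 TPM. Both Cd79a and Vpreb3 were called, and the surrogate light chain genes Igll1 (3417 and 3970 TPM to 1298 and 1080 TPM) and Vpreb1 (3097 and 3479 TPM to 1107 and 1042 TPM) fell without being called. Vpreb2 stood at 677 and 736 TPM against 624 and 496 TPM and did not pass the test. As Vpreb1 and Vpreb2 are near-identical and only uniquely mapping reads were counted, their split is uncertain.

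Of 20 B cell surface proteins tested, 13 fell, 2 rose and 5 did not change, and 9 were called lower, with a median log2 difference of −1.39. The number that rose was 4 without knock-out library 1, 1 without knock-out library 2 and 3 under both alternative scalings (median-ratio and quantile). The Fc receptor-like gene Fcrla (272 and 151 TPM to 6.06 and 15.0 TPM) and the inhibitory lectin Siglecg (215 and 275 TPM to 10.6 and 15.9 TPM) were among the largest changes. Ms4a1, which encodes CD20, was lower at 0.234 and 0.190 TPM than in the wild type, where it was at 14.0 and 25.8 TPM. Cd55, an inhibitor of complement, and Cd72, a co-receptor of B cells, differed by −3.04 and −2.93 on the log2 scale. Fcrl1 (4.24 and 6.74 TPM to 18.3 and 17.0 TPM) and Cd69 rose. Cd81, a tetraspanin of the B cell surface, was at 374 and 370 TPM against 324 and 319 TPM, without passing the test. The members therefore moved unequally, with log2 differences of −4.26 for Fcrla and −0.21 for Cd81.

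Genes of B cell receptor signalling were divided, with 9 of 23 lower, 6 higher and 8 that did not pass the test, and a median log2 difference of −0.22. The adaptor Pik3ap1 (BCAP), which links the receptor to PI3 kinase, was the only one called (471 and 497 TPM to 90.5 and 105 TPM). Blnk, the adaptor downstream of Syk, fell from 1140 and 1439 TPM to 613 and 627 TPM, and the kinase Btk from 146 and 129 TPM to 53.2 and 83.4 TPM. In contrast, the Src-family kinase Blk rose from 156 and 103 TPM to 256 and 325 TPM, and the phospholipase Plcg2 from 278 and 273 TPM to 557 and 541 TPM. The PI3 kinase subunit Pik3r1 had a log2 difference of 1.52. The count of members that fell was 6 without knock-out library 1.

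Among 24 transcription factors of the B lineage, 16 fell, 2 rose and 6 did not change, and the median log2 difference was −1.20. Lef1, a nuclear effector of Wnt signalling, was the most affected, with 537 and 669 TPM in the wild type and 7.41 and 18.2 TPM in the knock-out. Ikzf3 (Aiolos) was lower at 1.338 and 1.90 TPM than at 56.0 and 43.6 TPM in the wild type. Id3, an inhibitor of E proteins, fell from 362 and 521 TPM to 40.8 and 43.7 TPM, and Tcf3, which encodes the E proteins E12 and E47, from 1107 and 1462 TPM to 265 and 269 TPM. Bach2 and Irf4, which act in later B cell differentiation, were both called lower, with log2 differences of −2.86 and −2.36. Ebf1, the activator of the early B cell program, decreased from 454 and 502 TPM to 143 and 166 TPM (log2 difference −1.63), and Foxo1 from 201 and 220 TPM to 62.1 and 89.2 TPM. These factors were thus lower, but still expressed, and the factors that rose were Irf8 and Spi1 (PU.1), with log2 differences of 0.94 and 0.88.

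Of 16 genes of V(D)J recombination and end joining, 9 fell and 3 rose. The DNA polymerase Polm was almost absent in the knock-out, with 1.26 and 0.919 TPM as compared with 34.8 and 31.1 TPM. Rag2, which encodes a subunit of the recombinase, was called lower (128 and 132 TPM to 22.0 and 35.0 TPM), and its partner Rag1 fell from 687 and 436 TPM to 283 and 331 TPM. Dntt, the terminal transferase that adds N nucleotides, rose from 2277 and 2318 TPM to 3566 and 3072 TPM.

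**Figure D4:**
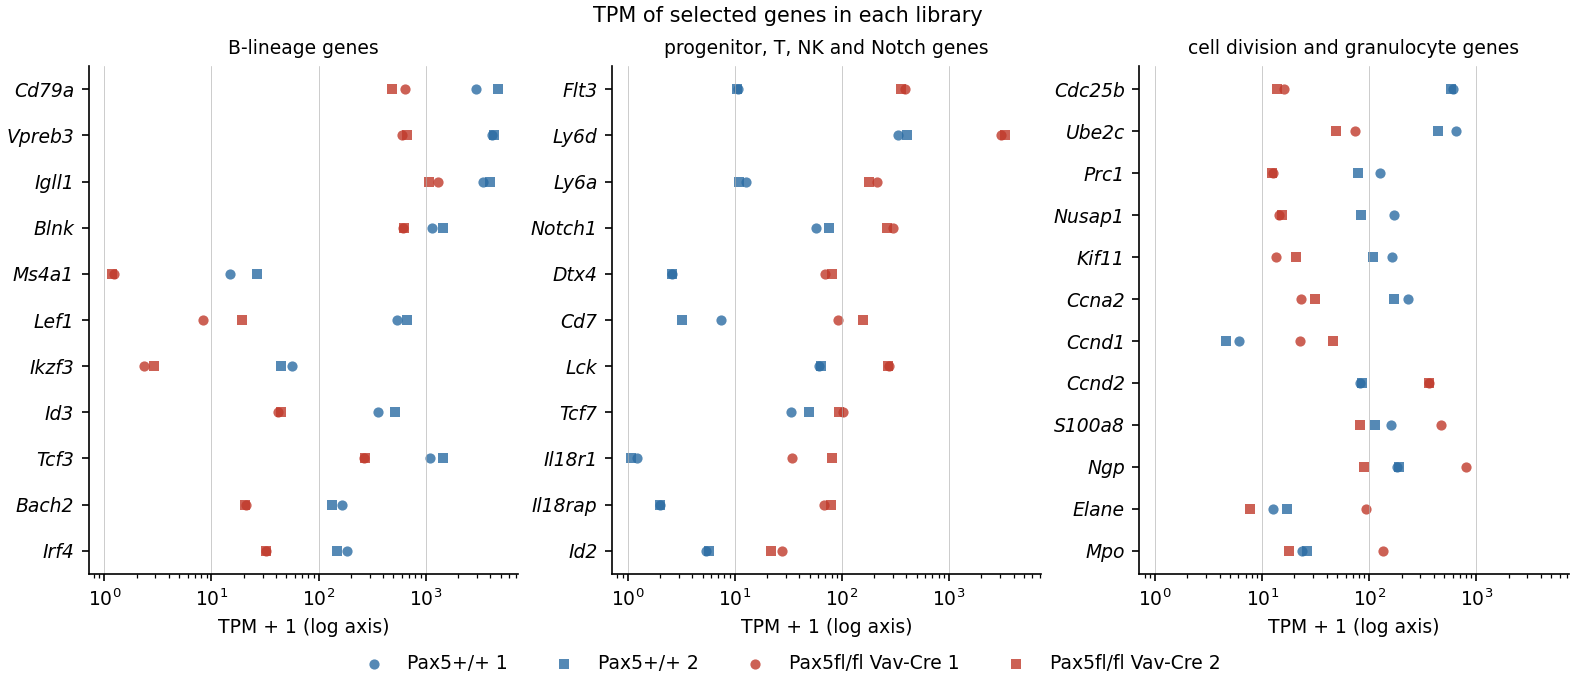
TPM + 1 (log axis) of selected genes in each of the 4 libraries, with Pax5+/+ in blue and Pax5fl/fl Vav-Cre in red, library 1 as circles and library 2 as squares. The plotted B-lineage genes are lower and the plotted progenitor, T, NK and Notch genes, chosen from those that changed, are higher in both knock-out libraries, whereas S100a8, Ngp, Elane and Mpo are high in knock-out library 1 only.

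Of 18 genes of stem and multipotent progenitors, 6 rose (33.3%), 4 fell (22.2%) and 8 did not pass the test. Of all genes tested, 16.2% rose and 19.7% fell, so the share that fell was near the background. The median log2 difference of the 18 genes was 0.18, and 3 were called higher. Of those that changed, 1 entered the test only through the knock-out and 1 only through the wild type. Flt3, a cytokine receptor of multipotent and lymphoid progenitors, rose from 9.79 and 9.54 TPM to 385 and 356 TPM (log2 difference 5.12, adjusted P = 9.98e-07, limma). Ly6a, which encodes Sca-1, increased from 11.6 and 9.97 TPM to 210 and 177 TPM, and Mn1 from 0.189 and 0.235 TPM to 10.4 and 7.69 TPM. Meis1 and Slamf1 were among the genes that fell, with log2 differences of −1.05 and −1.07. Cd34 was at 0.548 and 0.553 TPM in the wild type against 8.03 and 2.48 TPM in the knock-out. Kit stood at 62.8 and 54.7 TPM against 47.0 and 42.3 TPM, without passing the test.

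Of 11 surface markers that are used to stage pro-B cells, 4 fell (36.4%, as compared with 19.7% of all genes tested) and 3 rose (27.3%, as compared with 16.2%), and 6 rose without knock-out library 1. Their median log2 difference was −0.03 in knock-out library 1 and 0.39 in library 2. Enpep, which encodes the BP-1 antigen of late pro-B and pre-B cells, was at 22.6 and 15.8 TPM in the wild type and at 0.0237 and 0 TPM in the knock-out. Ly6d, a marker of B cell-biased lymphoid progenitors, rose from 333 and 403 TPM to 3039 and 3362 TPM, and Cd93 from 278 and 272 TPM to 714 and 981 TPM. Il7r, the receptor chain for the main pro-B cell growth factor, was at 206 and 204 TPM against 200 and 409 TPM, and its knock-out libraries stood apart.

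Of 17 T-lineage genes tested, 10 rose, 1 fell (2 without knock-out library 1) and 6 did not change. Of the 10, 3 reached 1 TPM only in the knock-out, so that they entered the test through their higher level there. Cd7 rose from 6.36 and 2.25 TPM to 91.8 and 156 TPM, and Cd247, the zeta chain of the T cell receptor complex, from 1.342 and 1.77 TPM to 19.9 and 15.3 TPM. The kinase Lck was already expressed at 60.4 and 63.4 TPM in the wild type and reached 273 and 271 TPM. Cd27, a member of the TNF receptor family, Tox and Cd6 had log2 differences of 2.37, 1.80 and 2.05. Tcf7 (TCF-1) rose from 32.8 and 47.8 TPM to 101 and 92.1 TPM, while Gata3 rose at a low level, from 0.246 and 0.326 TPM to 1.95 and 1.63 TPM. The segments TCRB_Cb1 and TCRB_Cb2 of the T cell receptor beta locus were called higher, and TCRB_Cb2 was at 27.1 and 36.8 TPM in the knock-out against 1.33 and 1.14 TPM. Of the T-lineage genes that were not tested, Cd3e reached at most 0.137 TPM, Cd3d at most 0.182 TPM and Bcl11b at most 0.315 TPM. In contrast, Cd4 (5.87 and 1.88 TPM against 4.23 and 4.75 TPM), Cd5, Zap70 and Lat (40.2 and 64.4 TPM against 55.5 and 79.5 TPM) were expressed in all 4 libraries without passing the test.

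Of 14 genes of NK cells and innate lymphocytes tested, 12 rose and 2 fell. Of the 12, 6 were below 1 TPM in both wild-type libraries, and 4 of these entered the test only through the knock-out. Apart from Il18r1, its co-receptor chain gene Il18rap rose from 0.985 and 0.989 TPM to 67.2 and 77.4 TPM. The granule protein gene Nkg7 rose from 6.45 and 6.34 TPM to 56.2 and 24.7 TPM. The transcriptional regulators Id2 (4.41 and 4.75 TPM to 26.8 and 20.6 TPM) and Nfil3 (2.53 and 0.768 TPM to 11.7 and 7.96 TPM) were called higher as well. Prf1 (perforin) and Klrb1c (NK1.1) fell, with log2 differences of −1.28 and −1.11. Eomes, Tbx21 and Ncr1, which define mature NK cells, were at or below 0.483 TPM in all 4 libraries and were not tested.

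Notch pathway genes did not move as a group. Of 26 members, 7 fell (26.9%), 5 rose (19.2%) and 14 did not change, near the shares of all genes tested, with a median log2 difference of −0.07. The receptors Notch1 (56.8 and 74.7 TPM to 298 and 263 TPM) and Notch2 (10.6 and 10.3 TPM to 36.8 and 36.4 TPM) were called higher, and Dtx4, a Deltex-family gene, rose from 1.58 and 1.59 TPM to 67.9 and 79.0 TPM. In contrast, the Deltex gene Dtx1 fell from 5.51 and 4.45 TPM to 0.832 and 0.591 TPM, and Heyl fell as described. Hes1, a direct target of Notch, was at 142 and 202 TPM against 133 and 150 TPM, without passing the test.

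Myeloid genes have to be read with the granulocyte RNA of knock-out library 1. None of the 20 mature granulocyte genes passed the test in either direction, but 15 rose when knock-out library 2 was left out and 3 fell when knock-out library 1 was left out. Of the 20 myeloid progenitor genes, 7 rose (35.0%), 3 fell (15.0%) and 10 did not change, while 16.2% of all genes tested rose and 19.7% fell. Their median log2 difference, however, was 1.54 in library 1 and −0.22 in library 2, and 14 of the 20 rose without library 2. Ctsg, cathepsin G, was called higher, at 71.7 and 42.4 TPM against 4.03 and 2.83 TPM. Mpo, myeloperoxidase, was at 22.4 and 25.2 TPM in the wild type and at 132 and 16.6 TPM in the knock-out. Csf2rb2 (8.55 and 15.4 TPM to 40.5 and 52.3 TPM) and Csf1r (2.43 and 2.29 TPM to 10.4 and 5.04 TPM) encode receptors for myeloid growth factors and rose in both libraries. Such receptor genes did not move together, as Csf2ra fell (log2 difference −0.95) and Csf3r did not pass the test. The other members that fell were Gfi1, which was called lower, and Fcgr2b, with log2 differences of −1.60 and −1.43. Csf2rb and Csf2rb2 are close paralogs, and so are Ly6c1 and Ly6c2, so that their values are uncertain.

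Of 19 genes of macrophages and dendritic cells tested, 11 rose, 2 of which entered the test only through the knock-out, and 3 fell. The plasmacytoid dendritic cell genes Siglech (11.7 and 3.37 TPM to 54.4 and 158 TPM) and Cox6a2 (12.8 and 10.4 TPM to 123 and 206 TPM) were higher in library 2 than in library 1, opposite to the granulocyte genes. The signalling adaptors Fcer1g (16.4 and 20.6 TPM to 153 and 174 TPM) and Tyrobp (56.2 and 44.1 TPM to 298 and 380 TPM) and the integrin Itgax (CD11c) were called higher. The complement genes C1qa, C1qb and C1qc, which mark macrophages, were called lower, with log2 differences from −1.92 to −1.78. Alas2 (101 and 57.7 TPM to 23.0 and 8.83 TPM), the heme synthesis enzyme of erythroid cells, was called lower too. Car2, a carbonic anhydrase on the list of 12 erythroid and megakaryocyte genes, rose from 188 and 156 TPM to 365 and 439 TPM. The 11 other genes of this list summed to 144 and 99.9 TPM in the wild type and to 68.4 and 22.6 TPM in the knock-out, and their part in the calls was not tested. Of the 12 genes, 2 fell (16.7%) and 1 rose (8.33%), as compared with 19.7% and 16.2% of all genes tested. However, 6 fell without knock-out library 1, and 4 rose without knock-out library 2. Of 5 mast cell and basophil genes tested, Mcpt8, a mast cell protease family member, rose from 2.14 and 2.98 TPM to 20.1 and 15.8 TPM, and Gata2 fell from 0.836 and 0.913 TPM to 0.357 and 0.232 TPM. Without knock-out library 2, 3 of the 5 rose, and under both alternative scalings 0 fell.

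Of 30 cytokine receptors tested, 18 rose, 2 of which entered the test only through the knock-out, and 3 fell, with a median log2 difference of 0.69. The number that fell was 2 when either knock-out library was left out and 1 under both alternative scalings. Ifngr1, the ligand-binding chain of the interferon-gamma receptor, rose from 78.3 and 60.9 TPM to 215 and 245 TPM. Il2ra (13.02 and 6.55 TPM to 26.4 and 50.4 TPM) and Il6st, the common chain gp130 (21.4 and 18.1 TPM to 60.5 and 60.5 TPM), were also higher. Tgfbr2, a receptor for TGF-beta, fell from 77.5 and 75.2 TPM to 35.5 and 36.1 TPM.

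Among 18 chemokine receptors and trafficking genes tested, 8 rose (44.4%) and 4 fell (22.2%). Of all genes tested, 16.2% rose and 19.7% fell, so the share that fell was near the background. However, 4 of the 8 that rose were below 1 TPM in both wild-type libraries. Of these, 3 reached 1 TPM only in the knock-out and were tested for that reason. The chemokine receptor gene Cxcr3 rose from 2.23 and 1.60 TPM to 14.4 and 15.6 TPM. The sphingosine-1-phosphate receptor genes moved apart, as S1pr1 fell from 39.8 and 41.3 TPM to 8.89 and 13.8 TPM while S1pr3 rose from 0.433 and 0.701 TPM to 7.78 and 7.51 TPM. Klf2, an activator of S1pr1 in T cells, fell from 69.8 and 61.9 TPM to 15.5 and 25.2 TPM.

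Of 28 integrins and adhesion adaptors, 7 fell (25.0%, as compared with 19.7% of all genes tested) and 7 rose (25.0%, as compared with 16.2%), shares that were near the background, and 1 of those that rose entered the test only through the knock-out. Nedd9, a docking protein of focal adhesions (225 and 185 TPM to 18.7 and 19.3 TPM), and Parvb, beta-parvin (59.5 and 77.6 TPM to 10.4 and 10.6 TPM), were called lower. Itgb7, which pairs with alpha 4 in gut homing (3.25 and 2.08 TPM to 35.5 and 40.9 TPM), and Emb, embigin (34.0 and 29.5 TPM to 151 and 165 TPM), were called higher. Parvg, gamma-parvin, rose from 229 and 226 TPM to 520 and 499 TPM, while its family member Parvb fell.

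Of the 8 Gimap GTPases, which act in lymphocyte survival, 7 rose and 0 fell, with a median log2 difference of 1.22. Gimap7 had the largest change (15.6 and 15.9 TPM to 225 and 297 TPM), followed by Gimap4 (63.4 and 85.5 TPM to 297 and 474 TPM) and Gimap3 (9.98 and 20.7 TPM to 61.5 and 55.4 TPM). Gimap1 was at 279 and 311 TPM against 359 and 359 TPM, and it passed under both alternative scalings, where all 8 rose.

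All 25 genes of the G2/M phase and mitosis fell, with a median log2 difference of −2.12, and 17 were called lower. Cdc25b, the phosphatase that activates Cdk1, stood apart from the rest, with 608 and 574 TPM in the wild type and 14.9 and 12.7 TPM in the knock-out. Ube2c, the ubiquitin-conjugating enzyme of the anaphase-promoting complex, fell from 645 and 436 TPM to 72.4 and 48.0 TPM, and cyclin A2 (Ccna2) from 230 and 170 TPM to 22.2 and 30.4 TPM. Prc1, Nusap1 and Kif11, which organize the spindle, had log2 differences from −3.01 to −2.98. Mki67 fell from 311 and 185 TPM to 53.6 and 63.6 TPM. The wild-type libraries also differed, as the list summed to 5038 TPM in the first and 3439 TPM in the second, while the knock-out libraries had 852 and 868 TPM. The count was 24 of 25 without either knock-out library and under both alternative scalings.

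Genes of the G1/S transition and replication did not follow this pattern, with 9 of 27 lower (33.3%), 8 higher (29.6%) and 10 that did not pass the test. Of all genes tested, 19.7% fell and 16.2% rose. The median log2 difference of the 27 genes was −0.25. E2f2, an activator of S-phase genes, fell from 331 and 284 TPM to 23.2 and 22.5 TPM, and the ribonucleotide reductase subunit Rrm2 from 593 and 518 TPM to 101 and 116 TPM. The D-type cyclins moved apart. Ccnd3 decreased from 1140 and 1347 TPM to 462 and 482 TPM, while Ccnd1 (5.13 and 3.59 TPM to 21.7 and 45.2 TPM) and Ccnd2 (81.3 and 85.1 TPM to 357 and 360 TPM) were called higher. Their partner kinase genes Cdk6 and Cdk4 rose, with log2 differences of 1.44 and 0.61.

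In the Myc, Max and Mxd family, Mxd3, an antagonist of Myc, fell from 140 and 135 TPM to 6.14 and 7.41 TPM, whereas Myc rose from 113 and 182 TPM to 379 and 382 TPM and Mycl from 0.961 and 0.638 TPM to 8.54 and 12.5 TPM. Of the 12 members, 3 fell (25.0%) and 2 rose (16.7%), near the shares of all genes tested, and 5 fell without knock-out library 2. Among 16 genes of survival and death, Bcl2l1, which encodes the anti-apoptotic Bcl-xL, fell from 119 and 109 TPM to 17.9 and 16.0 TPM, and Bcl2 rose from 3.62 and 3.49 TPM to 6.53 and 8.26 TPM. A total of 6 fell (37.5%, as compared with 19.7% of all genes tested) and 3 rose (18.8%, near the 16.2% of all genes).

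Of 24 genes of sterol and fatty acid synthesis, 16 rose and 2 fell, with a median log2 difference of 0.70. The fatty acid synthase Fasn rose from 56.8 and 62.3 TPM to 163 and 172 TPM. The desaturase Scd1 fell from 14.8 and 17.8 TPM to 3.07 and 5.63 TPM, as did the elongase Elovl6. Of 19 genes of glycolysis and the pentose phosphate pathway, 8 rose and 2 fell (1 under quantile normalization), and the largest log2 difference was 0.98 for Aldoc. Among 17 energy gatekeepers and genes of glucose uptake, 4 rose (23.5%) and 3 fell (17.6%), near the background, and the glucose transporter Slc2a6 was called higher (1.85 and 2.3005 TPM to 31.9 and 34.7 TPM).

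Of 25 interferon response genes, 15 rose and 1 fell, with a median log2 difference of 0.84, and 0 fell without knock-out library 2 or under either alternative scaling. Ifi44 rose from 7.49 and 6.81 TPM to 30.3 and 58.8 TPM, Oas2 from 4.14 and 4.54 TPM to 17.2 and 20.2 TPM, and Irf7, a regulator of type I interferon genes, from 34.6 and 42.2 TPM to 116 and 106 TPM. Of 13 genes of MHC class II presentation, 3 fell and 3 rose (23.1% each), near the background. H2-Ob (139 and 177 TPM to 39.4 and 39.1 TPM) fell, whereas H2-DMa (19.4 and 26.2 TPM to 112 and 90.7 TPM) and H2-DMb1 rose, which encode opposing regulators of peptide loading. Of 18 immediate early genes, 6 fell (33.3%, as compared with 19.7% of all genes tested) and 3 rose (16.7%, near the 16.2% of all genes). Egr1 was called lower (22.0 and 37.6 TPM to 2.95 and 3.80 TPM), and Fos rose from 3.13 and 4.70 TPM to 9.55 and 9.63 TPM. Among 15 housekeeping genes, 2 fell (13.3%) and 1 rose (6.67%), as compared with 19.7% and 16.2% of all genes tested. Between 1 and 3 fell and 0 or 1 rose when either knock-out library was left out or the scaling was changed. None of the 5 sex-linked genes passed the test, but 2 fell without knock-out library 2.

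**Figure D5:**
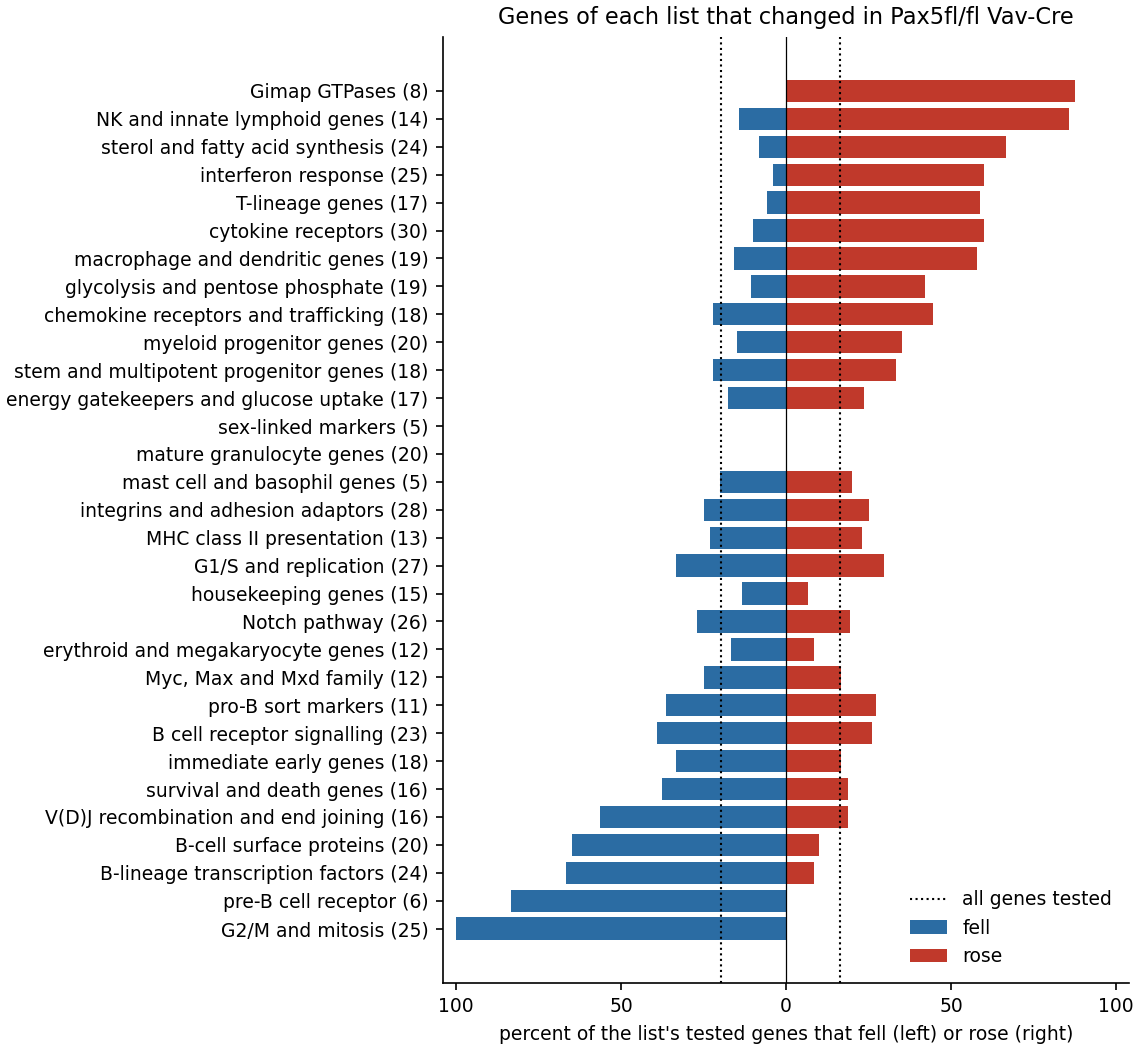
Percent of the tested genes of each list that fell (left, blue) or rose (right, red) in Pax5fl/fl Vav-Cre cells, with the number tested in parentheses and dotted lines at the shares of all 13436 genes (19.7% and 16.2%). All 25 G2/M genes fell and 7 of 8 Gimap genes rose, whereas none of the 20 mature granulocyte genes passed the test.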

How the data were processed

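RNA-seq of 8 libraries of 4 genotypes, of which 4 are compared here, was used as deposited, together with the Pax5 peak positions of 2 ChIP-seq libraries. The TPM values were computed by the authors from uniquely mapping reads (STAR 2.4.2, mm10) counted on RefSeq genes after removal of ribosomal reads. The TPM tables keep full precision, and whole reads could be recovered for 18206 of 18206 genes above 0 in at least 2 libraries (100.0%). Of 1738 genes whose values were moved by up to 1 in 1000, 0 came out whole. That check used a tighter limit than the recovery, so these results are not directly comparable. The peaks were called by the authors with MACS on single libraries.

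Differences were tested with limma 3.58.1 (R 4.3.3) on log2(TPM + 1) over the 13436 genes with all 8 libraries in the fit, eBayes with a trend and Benjamini-Hochberg adjustment. Fold changes of low genes are understated by the pseudocount of 1. Counting by strand is not given in the sources used here, so overlapping genes are uncertain, and genes with near-identical copies are understated by unique mapping. A total of 385 immunoglobulin genes were kept out of the calls. Symbols matched RefSeq for 24780 genes (96.9%). Groups came from the labels, and the precision is limited by 2 libraries a genotype.

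Named genes are the 10 with the largest change called in each direction and at most 6 a list and direction by size of change, with members that did not change where a list rests on them. Ebf1, Foxo1, Rag1, Mki67, Tcf7, Gata3, Ubash3a, Cd4, Cd5, Zap70, Lat, the TCRB segments, Speer2, Hbb-b2 and the immunoglobulin genes were named beyond that rule, after their values were seen. The comparison, the 31 gene lists (598 of 604 entries in the tables) and the rules were chosen with earlier results of these data known. Python 3.11.15, numpy, pandas, scipy and matplotlib were used for tables, intervals and plots. Alternatives are given in the closing section. Some genes under these rules are not reported here.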

Additional observations from a re-analysis of the deposited data

How the results depend on the processing

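The numbers of genes called lower (376) and higher (325) changed by more than 1.5 times only with a pseudocount of 5 (242 and 166) and with a 2-fold threshold (720 and 635). Leaving out 1 library at a time gave 381 to 556 genes called lower and 321 to 429 called higher, where the upper ends came from knock-out groups of a single library, which was assumed to vary like the other groups and could not be compared with a second library. limma-voom on the recovered reads gave 386 and 429, and under median-ratio scaling 345 and 365 genes were called, so that more genes were called higher than lower, unlike in the reported fit. Genes that fell without a fold threshold numbered 1425, and those that rose 1250, when only the 4 libraries compared were fitted, as compared with 2647 and 2182, and 4209 fell without knock-out library 2. The share of genes called lower with a Pax5 peak at the start site was 61.6% within 0.2 kb and 59.7% with peaks that also overlapped the R31Q list, and that of genes called higher was 28.7% within 0.2 kb and 40.2% within 2.5 kb. Over all genes tested, the shares were 64.7% within 0.2 kb, 71.0% within 2.5 kb and 65.5% with peaks that also overlapped the R31Q list. A narrower window or an added overlap can only lower a share, and a wider window can only raise it. The cause of the other shifts was not tested.

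For the 260 genes named by the rule or beyond it, 8 values changed sign, 184 lost and 10 gained significance, and 4205 kept their direction and their side of the threshold. The log2 difference without knock-out replicate 1 and without replicate 2 was −0.927 and 2.679 for Elane, −0.487 and 2.429 for Mpo, −1.068 and 2.11 for Ngp, −0.734 and 1.806 for S100a8, and 0.995 and −0.032 for Il7r. Leaving out 1 library at a time gave log2 differences from −0.325 to 0.929 for Cd4 and from −0.068 to 0.36 for Zap70. No paired analysis was possible because the labels give no replicate numbers, and the numbers used here only name the libraries of a genotype in accession order.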

Other observations

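Immunoglobulin genes were left out of the calls, although 45 of the 273 tested would have been called lower and 21 higher. In the reported calls, 2.80% of all genes tested were lower and 2.42% higher. Ighv1-85 and Iglc3, named next, were higher in the knock-out, although more of these genes would have been called lower. Ighv1-85 was at 9.62 and 5.05 TPM in the wild type against 279 and 254 TPM in the knock-out, and the lambda constant gene Iglc3 at 28.5 and 28.5 TPM against 205 and 385 TPM. Igkc was at 764 and 985 TPM in the wild type, at 195 TPM in the first knock-out library and at 866 TPM in the second. The globin gene Hbb-b2 had 2753 and 1518 TPM in the wild type against 1084 and 212 TPM in the knock-out. Some calls rest on few reads, as TCRB_Jb2-S1 was called higher on 3 reads in the knock-out libraries. Speer2 had no read in either knock-out library and a mean of 39.0 TPM in the wild type, which is at least 351-fold lower by a floor of 3 reads over both libraries.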
